A study of Rattus norvegicus with 35 samples.

Results

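The Nduf genes encode the nuclear subunits of mitochondrial complex I and the factors that assemble it. They were taken as every gene in the deposited count table whose symbol starts with Nduf. This gave 46 of 15059 genes, and all 46 were among the 14411 genes tested. By role they divide into 7 core subunits, 8 accessory subunits of the matrix arm, 19 accessory subunits of the membrane arm, the acyl carrier Ndufab1, Ndufa4 with its paralog Ndufa4l2, the 8 assembly factors Ndufaf1 to Ndufaf8, and Ndufa10l1. Ndufs6 and Ndufb1 were not analysed here.

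Complex I, the NADH dehydrogenase of the respiratory chain, takes electrons from NADH in its matrix arm, passes them along iron-sulfur clusters to ubiquinone and pumps protons through its membrane arm. Its subunits come from both genomes: the Nd genes of mitochondrial DNA supply the proton-pumping core, and the Nduf genes supply the rest. Neurons depend heavily on this pathway for ATP, and inherited loss of subunits such as Ndufs4 causes Leigh syndrome, a degenerative disease of the brain.

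Messenger RNA was measured in the hippocampus of female Sprague Dawley rats, in 7 groups of 5 libraries, 35 in all. Surgery was done at 6 months of age and was either a sham operation or removal of the ovaries. After 2 weeks without treatment, the ovariectomised animals were injected daily into the peritoneum for 7 days with vehicle or with 1 of 5 agents. The agents were 17β-estradiol at 0.16 mg per kg, the receptor modulators tamoxifen at 3.23 and raloxifene at 9.68, and the aromatase inhibitors exemestane at 0.16 and anastrozole at 4.03. All groups but sham therefore lack ovaries. The comparisons ask what loss of the ovaries, estradiol replacement and each endocrine therapy change in this tissue. The labels do not say that each library came from a separate animal, so p-values measure the spread between libraries.

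Counts per library totalled 5.58 to 12.09 M (mega), and levels are given as CPM, the count per M of the library's TMM-scaled total. A split that no label mentions, and whose origin was not tested, runs through the libraries. It was set by the per-gene factors that the authors applied, which are ratios of the deposited counts to the deposited normalized signal. The share of the small RNA Rn7sl1 fixed only which class is called A. The split gives 20 libraries in class A and 15 in class B. All 5 sham and all 5 estradiol libraries were class A, all 5 raloxifene libraries were class B, and vehicle had only library 4 in class B. Exemestane had only library 5 in class A, tamoxifen had libraries 1 and 2 in class A, and anastrozole had libraries 3 and 4 in class B. Class and treatment are thus partly confounded, and each comparison is given as designed and with class as a term in the model. Markers of hippocampal neurons summed to 480 to 962.6 CPM, with none of the 7 measured at 0, and those of choroid plexus ranged from 2.57 to 3202 CPM in sum.

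Apart from Ndufa10l1 and Ndufa4l2, every Nduf gene had at least 16 counts in each library and a mean of at least 33. Ndufs1, a core subunit, drew the most counts, with a mean of 1129.6 a library. Ndufa10l1, a near-identical copy of Ndufa10, was at 0 in 7 libraries with a mean of 8.49 counts, so its values are uncertain. Ndufa4l2 had a mean of 10.3 counts. By symbol, RefSeq lists 45 pseudogenes for 19 of the 46 genes, Ndufaf4, Ndufs4, Ndufs5 and Ndufab1 among them. It also lists 10 copies or paralogs for 5 genes, which include the members Ndufa10l1 and Ndufa4l2. No sequences were compared. The counting could split reads between sequences that are nearly the same, which was not tested.

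Promoters of 41 of the 46 genes were matched in RefSeq (build GRCr8). The 4 shown next belong to the genes with the largest rises and falls among those that passed in raloxifene, which are also among those that differed most between library classes. Each is the 170 bases just before the annotated start, read 5′ to 3′, with motif matches on either strand in capitals. Ndufaf4 lies at chr5:43401625-43401794 (plus strand), Ndufaf1 at chr3:127104021-127104190 (minus strand), Ndufs7 at chr7:10110499-10110668 (minus strand) and Ndufs8 at chr1:210573699-210573868 (minus strand).
Ndufaf4: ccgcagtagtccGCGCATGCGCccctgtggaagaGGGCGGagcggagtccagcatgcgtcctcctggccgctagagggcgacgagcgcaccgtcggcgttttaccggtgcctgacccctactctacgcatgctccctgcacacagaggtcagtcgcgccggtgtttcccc
Ndufaf1: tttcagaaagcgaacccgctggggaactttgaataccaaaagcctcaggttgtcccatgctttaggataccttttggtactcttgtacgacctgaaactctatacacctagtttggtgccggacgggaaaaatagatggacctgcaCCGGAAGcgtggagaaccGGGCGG
Ndufs7: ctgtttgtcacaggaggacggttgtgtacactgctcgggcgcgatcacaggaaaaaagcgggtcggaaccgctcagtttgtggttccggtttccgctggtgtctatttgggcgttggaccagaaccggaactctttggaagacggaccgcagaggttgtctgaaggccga
Ndufs8: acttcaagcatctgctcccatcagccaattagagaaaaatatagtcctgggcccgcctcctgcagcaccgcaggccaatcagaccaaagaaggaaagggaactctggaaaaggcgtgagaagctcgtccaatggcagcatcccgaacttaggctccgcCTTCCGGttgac
The capitals in Ndufaf4 mark the NRF1 motif GCGCANGCGC and the Sp1 motif GGGCGG, those in Ndufaf1 the ETS motif CCGGAAG bound by GABPA and the Sp1 motif, and those in Ndufs8 the ETS motif on the other strand. Ndufs7 held none of the motifs searched in the bases shown, and its YY1 motif lies just after the start.

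Over the full 300-base window (250 bases before the start and 50 after), NRF1 motifs were present in 8 of the 41 Nduf promoters (19.5%), against 9.48% of 10748 promoters of listed genes. YY1 motifs (AAGATGGC) stood in 9 (22%), against 5.2%. ETS motifs stood in 9 (22%, against 16.3%) and Sp1 motifs in 19 (46.3%, against 62%). Of the 41 genes, 23 were lower and 11 higher in class B libraries. Of those with a YY1 motif 7 were lower and 1 higher, with an ETS motif 7 and 2, with an NRF1 motif 3 and 3, and with an Sp1 motif 9 and 6. The binding motif of the estrogen-related receptors (TCAAGGTCA) was in none of the 41 (0.261% of all) and neither was the full palindromic estrogen response element GGTCANNNTGACC (0.0093% of all). The median GC content was 57.3% in the Nduf promoters and 61.0% in all. Among Nduf genes it was 57.3% for those higher and 57.7% for those lower in class B.

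The summed level of the 46 genes stayed within a narrow range. It ran from 1847 to 2077 CPM over all 35 libraries, with means of 1930 ± 52.7 in vehicle, 1994 ± 47.5 in sham, 2024 ± 40.3 in estradiol and 1981 ± 70.9 in tamoxifen (SD, n = 5 each). In raloxifene it was 1921 ± 46.8, in exemestane 1900 ± 45.4 and in anastrozole 1985 ± 64.7. Every group's range overlapped that of vehicle, which was 1860 to 1993 CPM. Class A libraries averaged 2001 ± 50.8 CPM (n = 20) and class B libraries 1910 ± 39.1 (n = 15).

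**Figure D1:**
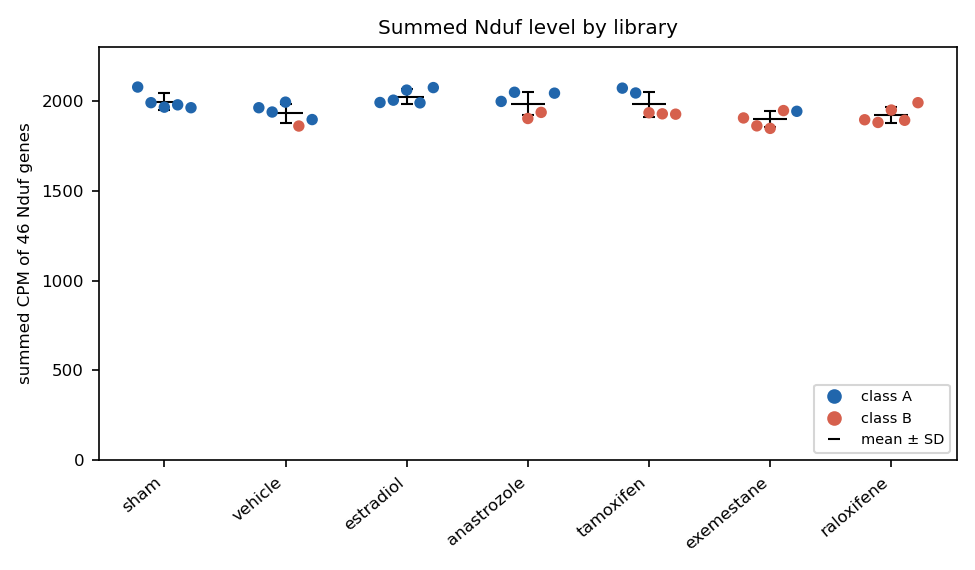
Summed CPM of the 46 Nduf genes (vertical axis, from 0) in each library by treatment group, with points coloured by library class and bars showing the mean ± SD of 5 libraries. All libraries lie between 1847 and 2077 CPM, and class B points sit toward the lower side.

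Behind this steady sum, single genes moved in opposite directions. In a test of any difference among the 7 groups (edgeR, quasi-likelihood F-test, Benjamini-Hochberg adjusted over all genes), 26 of the 46 Nduf genes passed (56.5%), where 37% of all genes did. With library class as a term, 0 of 46 passed in edgeR, with 5 at an unadjusted p under 0.05. Ndufab1, the acyl carrier that both joins complex I and serves mitochondrial fatty acid synthesis, had the smallest p in that second test, with an adjusted p of 0.196 in edgeR. The map of levels by library shows 1 block of genes high in class A and another high in class B.

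**Figure D2:**
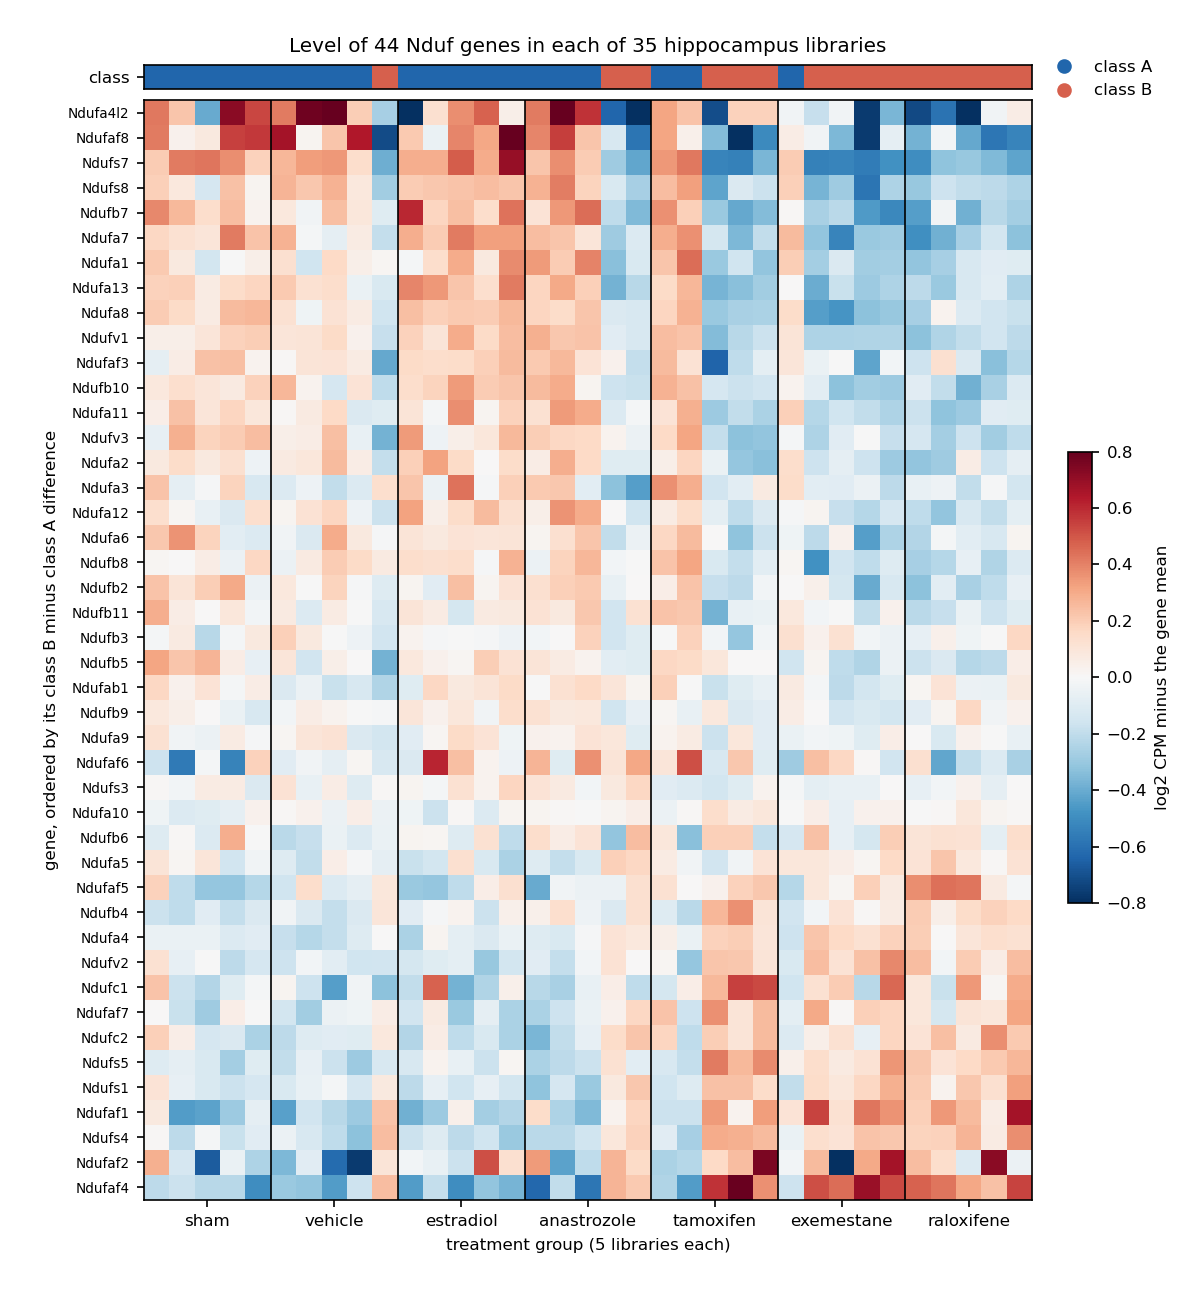
Level of 44 Nduf genes (rows) in 35 libraries (columns, by group and, within a group, by class), as log2 CPM minus the gene's mean, with the class of each library in the bar on top. Rows are ordered by the class difference, from Ndufa4l2, lowest in class B, to Ndufaf4, highest in class B, and within tamoxifen and anastrozole the colours change with class.

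Raloxifene gave the most calls among the comparisons with vehicle. Of the 46 Nduf genes, 14 passed (30.4%), 8 rising and 6 falling, while 24.8% of all 14411 genes passed in the same comparison. The rises were Ndufaf4, Ndufaf1, Ndufs5, Ndufs4, Ndufc2, Ndufv2, Ndufa4 and Ndufb4, and the falls included Ndufs7, Ndufs8, Ndufa7, Ndufb8 and Ndufv1. The median log2 change over the 46 genes was -0.045, against -0.023 over all genes.

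Core subunits made up most of the falls. Of 7, 4 fell in raloxifene and 1 rose (71.4%, where 24.8% of all genes passed), with a median log2 change of -0.19. Ndufs7, which carries the last iron-sulfur cluster before ubiquinone, stood at 30.2, 34, 34.5, 33.3 and 31.8 CPM in the 5 raloxifene libraries. In vehicle it stood at 51.2, 53.6, 54.2, 32.4 and 46.8 CPM. The groups overlapped through vehicle library 4 alone, the class B library of that group. Ndufs7 fell by 0.54 ± 0.18 (SE) on the log2 scale, with an adjusted p of 0.0273 in edgeR.

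Ndufs8, its iron-sulfur neighbour in the matrix arm, stood at 25, 27.5, 27, 26.7 and 26 CPM in raloxifene and at 37.3, 35.9, 37.4, 25.5 and 32.7 CPM in vehicle. Again the lowest vehicle value was library 4, within the raloxifene range. The log2 change was -0.35 ± 0.13, with an adjusted p of 0.0463 in edgeR. Ndufv1, the subunit that binds NADH and its flavin, had a log2 change of -0.27 (adjusted p = 0.0376 in edgeR). Ndufv2, an iron-sulfur protein beside Ndufv1, was the core subunit that rose, by 0.27 (adjusted p = 0.0264).

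Among the assembly factors 2 of 8 rose and 0 fell (25%), about the 24.8% of all genes. Ndufaf4, which with Ndufaf3 helps build the part of the matrix arm that holds Ndufs7 and Ndufs8, stood at 32.3, 31.4, 28.9, 27.4 and 33.9 CPM in raloxifene. Vehicle libraries held 19, 18.7, 17.1, 27.7 and 20.8 CPM. Library 4 was the highest in vehicle and the single one to reach the raloxifene range. Ndufaf4 rose by 0.58 ± 0.18 (SE, log2; adjusted p = 0.0246 in edgeR).

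Ndufaf1, a factor that assembles the membrane arm, stood at 15.3, 17.1, 16, 14 and 21.3 CPM in raloxifene against 9.92, 12.1, 11.5, 15.7 and 11 in vehicle. Only vehicle library 4 entered the raloxifene range. The rise was 0.48 ± 0.14 on the log2 scale (adjusted p = 0.0168 in edgeR). Ndufaf3, the partner of Ndufaf4, had a log2 change of -0.13 with an adjusted p of 0.464. Ndufaf8, the partner of Ndufaf5, had one of -0.61 with an adjusted p of 0.0528.

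Accessory subunits went both ways. In the membrane arm 3 of 19 rose and 1 fell (21.1%), and in the matrix arm 1 of 8 rose and 1 fell (25%). Neither share stands above the 24.8% of all genes by more than a little. Ndufs5, on the outer face of the membrane arm, stood at 53.0, 49.2, 51.0, 52.6 and 54.8 CPM in raloxifene and at 39.8, 43.6, 40.5, 41.8 and 37.3 CPM in vehicle. Here the groups did not overlap, and vehicle library 4 lay among the other vehicle libraries. Ndufs5 rose by 0.36 ± 0.09 (SE, log2; adjusted p = 0.0124 in edgeR). Ndufs4, which stabilises the NADH-binding end, rose by 0.30 ± 0.10 (adjusted p = 0.03), from 62.6 ± 9.77 to 76.9 ± 6.04 CPM (SD, n = 5). Ndufa7 had a log2 change of -0.34 ± 0.13 (adjusted p = 0.0483) and Ndufb8 of -0.27 ± 0.09 (adjusted p = 0.0251). Ndufa4, now counted with cytochrome oxidase, rose by 0.25 (adjusted p = 0.0131).

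**Figure D3:**
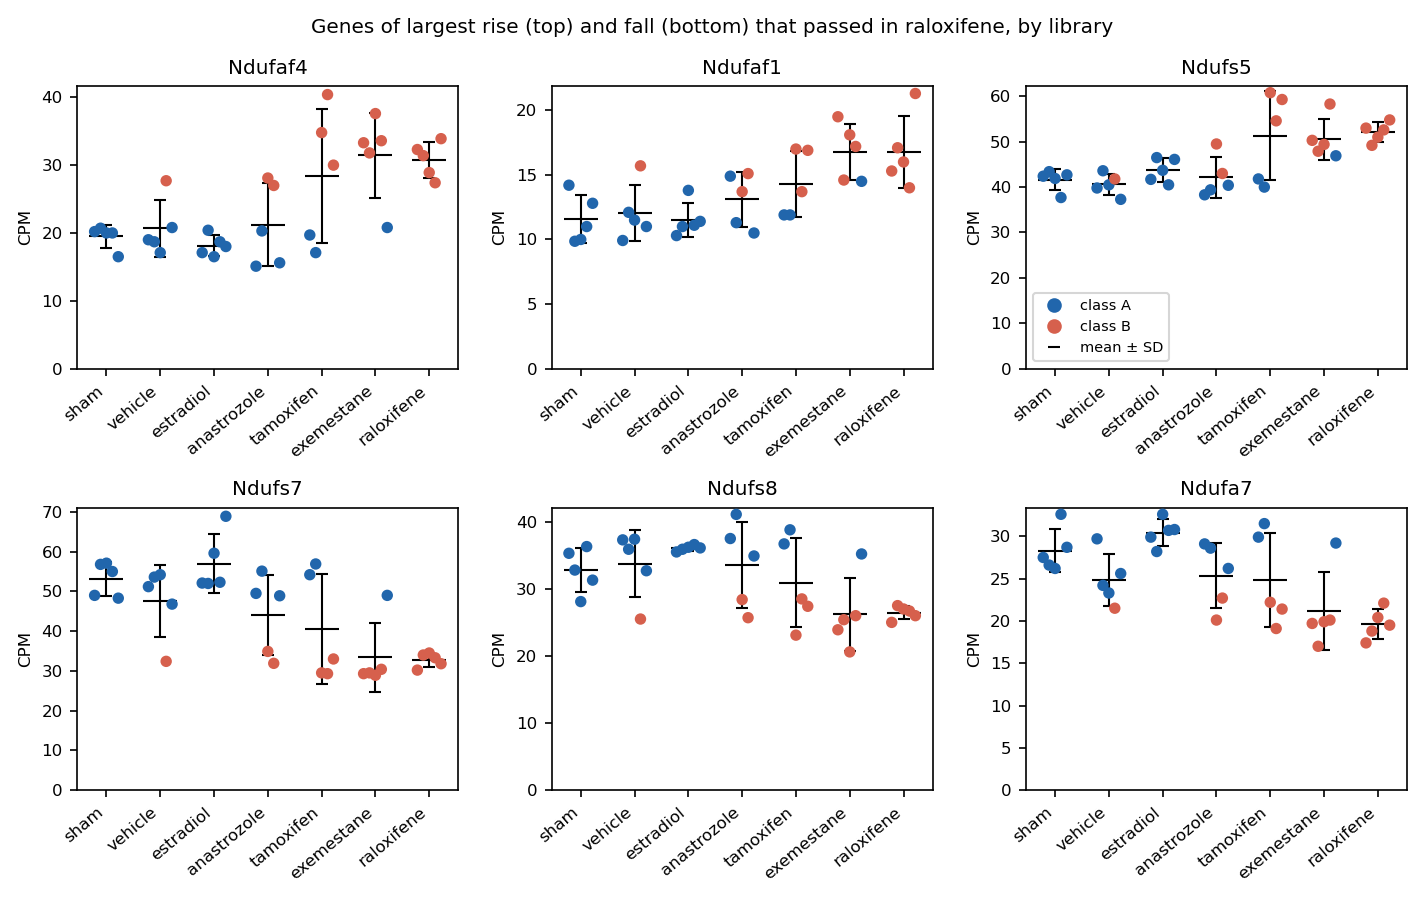
CPM (vertical axis, from 0) of the 3 Nduf genes with the largest rise in raloxifene (Ndufaf4, Ndufaf1, Ndufs5, top) and the 3 with the largest fall (Ndufs7, Ndufs8, Ndufa7, bottom) among genes that passed, by library and group, with bars showing the mean ± SD of 5 libraries and colour showing class. For Ndufs7 and Ndufaf4 the class A and class B points do not overlap in any group, and vehicle library 4 sits with the raloxifene libraries.

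With class as a term in the model, 0 of the 46 Nduf genes passed in raloxifene in edgeR, and 1 of all 14411 genes did. At an unadjusted p under 0.05 stood 3 Nduf genes, and 764 of all 14411 genes. The log2 change of Ndufs7 was then 0.06, that of Ndufs8 0.07, of Ndufa7 0.03 and of Ndufv1 0.04, each of opposite sign to the value as designed. Ndufaf4 had 0.0098 and Ndufs4 0.02, while Ndufaf1 kept 0.21 and Ndufs5 0.15. The number of Nduf genes with a positive value went from 20 of 46 as designed to 37 of 46, and the median from -0.045 to 0.06. The class term was estimated over the groups that hold both classes (vehicle, tamoxifen, exemestane and anastrozole) and assumed equal in every group. Raloxifene has no class A library and vehicle a single class B library, so within this pair that library alone separates treatment from class. Between that library and the 5 raloxifene libraries alone, Ndufs5 differed by 0.30 and Ndufs7 by -0.0003 on the log2 scale, and 0 of 46 passed in edgeR. Without the other treatments, the fit of raloxifene and vehicle alone called 22 Nduf genes, as did the fit without vehicle library 4. Fits without raloxifene library 1, 3, 4 or 5 called 7, 9, 8 and 5. Those without vehicle library 1, 2, 3 or 5 called 4, 6, 4 and 7. The share of all genes called in these alternative fits is not given here, so they show only how the count moves.

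**Figure D4:**
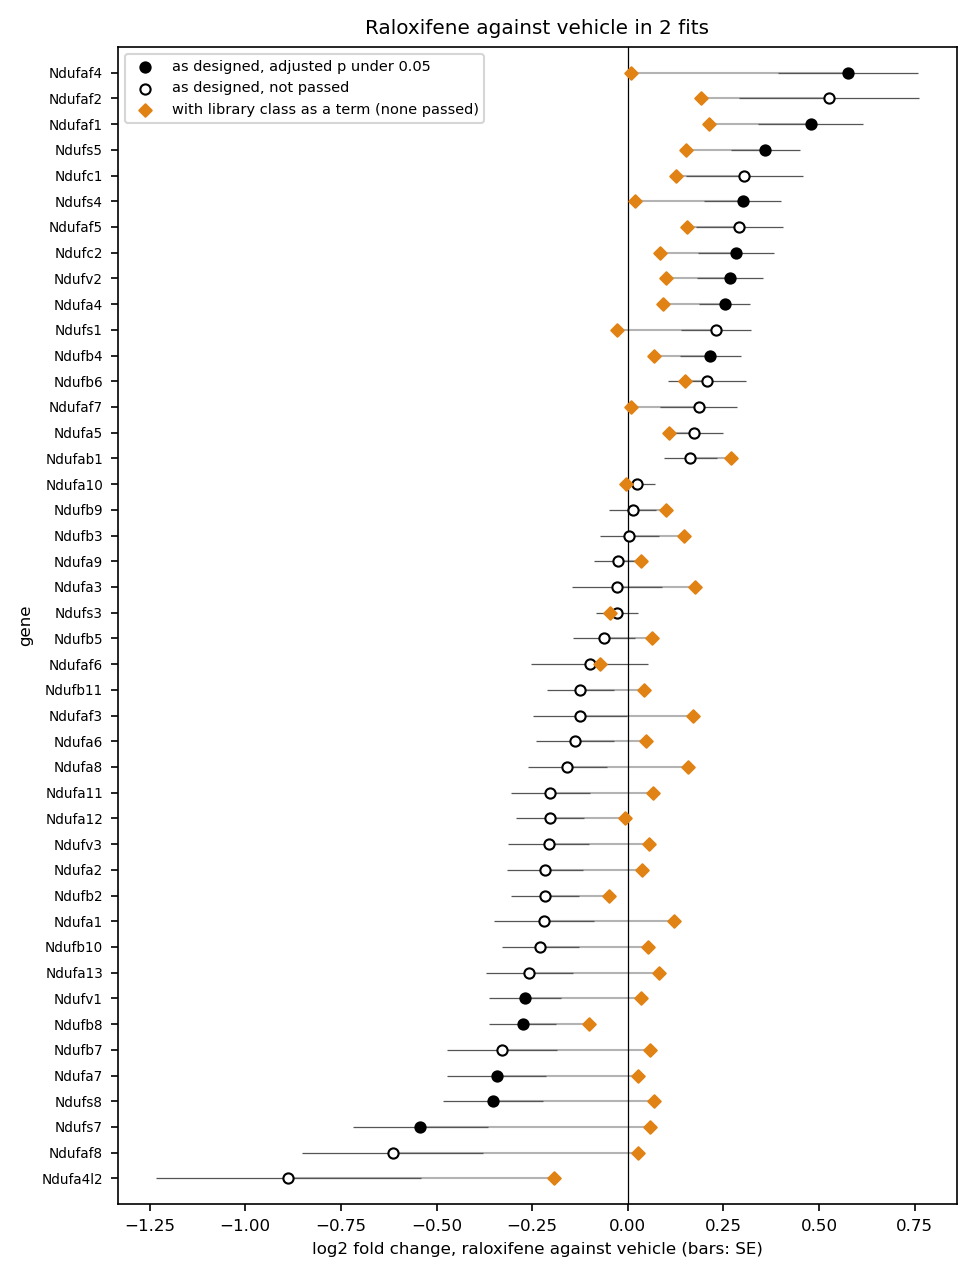
Log2 fold change of raloxifene against vehicle (horizontal axis) for 44 Nduf genes as designed (circles with SE bars, filled where the adjusted p was under 0.05) and with library class as a term (diamonds). The spread from Ndufa4l2 (-0.89) to Ndufaf4 (0.58) shrinks in the second fit, where no gene passed.

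Other parts of the pathway are given beside the 24.8% of all genes that passed in raloxifene. All 7 mitochondrially encoded complex I genes rose, with a median log2 change of 0.54, from 0.24 for Mt-nd4l to 0.80 for Mt-nd6. With class as a term their median was 0.13 and none passed. All mitochondrial protein genes together took 6.99 to 7.61% of counts in raloxifene against 5.27 to 6.66% in vehicle. Among 12 other complex I assembly factors, 3 rose (Tmem126b by 0.51, Lyrm2 by 0.33 and Tmem70 by 0.30). That is 25%, about the share of all genes. Of 38 nuclear genes of complexes II to V, 10 rose and 13 fell (60.5% called), with a median of -0.081. Of 15 regulators of respiratory genes and mitochondrial DNA, Gabpa, Gabpb1 and Tfb2m rose and Pprc1, Polrmt and Polg fell (40% called). Adding class to the model left 0 calls in each of these 3 lists in edgeR, with medians of -0.0095 for the assembly factors, 0.04 for complexes II to V and -0.018 for the regulators. Ppargc1a had a log2 change of 0.06 and Nrf1 of -0.11, and neither passed (adjusted p = 0.538 and 0.39 in edgeR). Of 7 oligodendrocyte and myelin markers 4 fell, with a summed level of 4957 to 5858 CPM in raloxifene and 5979 to 7318 in vehicle. The median of this list lay below the shared vehicle libraries in every group, at -0.36 (log2) in raloxifene. It was -0.22 in sham, -0.35 in estradiol, -0.23 in tamoxifen, -0.37 in exemestane and -0.28 in anastrozole. Of 6 neuronal markers 3 rose, with sums of 3327 to 3672 CPM against 3255 to 3466, and of 5 astrocyte markers 1 rose and 1 fell, at 2134 to 2407 CPM against 1991 to 2463. Hippocampal neuron markers and thalamus markers each had 1 rise, of 7 and of 5. No microglial, endothelial or choroid plexus marker passed. None of the neuronal, astrocyte and myelin markers was at 0 in any library, and the part of these markers in the Nduf result was not tested. In bulk tissue, fewer cells of a type and less RNA per cell cannot be told apart.

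Exemestane gave 6 calls among the 46 Nduf genes (13%), against 6.51% of all genes. DESeq2 called 10, and edgeR on these 2 groups alone called 0. Ndufaf4, Ndufaf1, Ndufs5, Ndufv2 and Ndufa4 rose, and 1 gene fell. This comparison and that of raloxifene share their vehicle libraries. Ndufaf4 stood at 33.3, 31.8, 37.6, 33.6 and 20.8 CPM in exemestane. Library 5, the class A library of the group, was the low one and lay within the vehicle range. Ndufaf4 rose by 0.61 ± 0.18 (SE, log2; adjusted p = 0.0462 in edgeR).

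Ndufaf1 stood at 19.5, 14.6, 18.1, 17.2 and 14.5 CPM in exemestane, and 3 of the 5 libraries lay above every vehicle value. Its rise was 0.48 ± 0.14 (adjusted p = 0.0451 in edgeR). Ndufs5 stood at 50.3, 47.9, 49.4, 58.3 and 46.9 CPM, with all libraries above those of vehicle, and rose by 0.32 ± 0.09 (adjusted p = 0.0451). Ndufv2 rose by 0.30 ± 0.09 (adjusted p = 0.0454) and Ndufa4 by 0.25 ± 0.07 (adjusted p = 0.0406).

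With class as a term, 0 of 46 Nduf genes passed in exemestane in edgeR, as did 0 of all 14411 genes. An unadjusted p under 0.05 was held by 6 Nduf genes, and by 1004 of all 14411 genes. The log2 change was then 0.16 for Ndufaf4, 0.28 for Ndufaf1, 0.16 for Ndufs5, 0.16 for Ndufv2 and 0.12 for Ndufa4. The count rested on single libraries. It was 14 without exemestane library 5, 11 without vehicle library 4, and 0 without any other library of either group. For these counts and that of DESeq2, the share of all genes called is not given here. Of 7 myelin markers 4 fell in exemestane, with sums of 4644 to 6376 CPM against 5979 to 7318 in vehicle. Their median log2 change was -0.37, and it was negative against the same vehicle libraries in every other group. Of 5 microglial markers 2 fell (110.8 to 135.8 CPM in sum, against 123.8 to 170.7) and of 3 endothelial markers 1 fell (98.5 to 112.6 CPM, against 104.2 to 138.2). The neuronal, hippocampal neuron and thalamus lists each had 1 rise, of 6, 7 and 5. None of the myelin, microglial and endothelial markers was at 0, and the part of all these markers was not tested.

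In the pathway lists as designed, none of the 7 mitochondrially encoded genes passed in exemestane (median 0.29). Of 12 other assembly factors Lyrm2 rose, by 0.39 (8.33% called), and of the 15 regulators Gabpa rose, by 0.57 (6.67%). Both shares are near the 6.51% of all genes. Of the 38 genes of complexes II to V, 2 rose and 4 fell (15.8%). Adding class to the model left 0 calls in these 4 lists in edgeR, with Lyrm2 at 0.25 and Gabpa at 0.23.

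Tamoxifen gave 0 calls among Nduf genes in edgeR, as among all genes (0%), and 1 call in DESeq2. In edgeR, 9 of the 46 had an unadjusted p under 0.05, as did 2365 of all 14411 genes. The smallest adjusted p among Nduf genes belonged to Ndufs5 (0.121 in edgeR). It stood at 41.8, 40, 60.8, 54.6 and 59.3 CPM, a log2 difference of 0.34 ± 0.09 from vehicle. Libraries 1 and 2, both class A, lay within the vehicle range, and the 3 class B libraries lay above it. Adding class to the model gave 0.22. Ndufa4 differed by 0.23, Ndufc1 by 0.45 and Ndufaf7, a methyltransferase, by 0.25. The group shows the class split within 1 treatment: Ndufs7 averaged 55.5 CPM in its 2 class A libraries and 30.6 in its 3 class B libraries, and Ndufaf4 18.4 and 35.1 CPM. Leaving out tamoxifen library 1 or 2 gave 1 and 2 calls. The share of all genes called is not given here for these counts or for that of DESeq2.

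Sham, estradiol and anastrozole also gave 0 calls among the Nduf genes in edgeR and 0 in DESeq2. The share of all genes called in edgeR was 0% in sham, 0.00694% in estradiol and 0% in anastrozole. At an unadjusted p under 0.05 there were 981, 1316 and 414 of all 14411 genes, and 3, 4 and 2 Nduf genes. Sham and estradiol hold class A libraries only. Within class A these comparisons again gave 0 calls, with 5 and 9 Nduf genes at an unadjusted p under 0.05. Counts over all genes in these fits within class A are not given here. More Nduf genes had positive than negative values against vehicle, 32 of 46 in sham, 34 in estradiol and 34 in anastrozole, with medians of 0.06, 0.10 and 0.04. The medians over all genes were -0.0040 in sham, -0.0077 in estradiol and 0.0041 in anastrozole. These 3 comparisons share their vehicle libraries.

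Ndufab1 was among the 2 genes of smallest p in each of them. Its levels were 29.2, 30.6, 27.9, 26.8 and 28.9 CPM in vehicle and 35.4, 32.4, 34.1, 31.3 and 33 in sham. Every sham library lay above every vehicle library. In estradiol it stood at 29.6, 35.5, 33.3, 34 and 35.2 CPM and in anastrozole at 31.5, 34.4, 33.8, 32.1 and 35.3, the second again clear of vehicle and the first overlapping it through 1 library. The log2 difference from vehicle was 0.21 ± 0.07 in sham, 0.23 ± 0.07 in estradiol and 0.22 ± 0.07 in anastrozole, with adjusted p of 0.461, 0.309 and 1 in edgeR.

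For tamoxifen the difference of Ndufab1 was 0.12, for raloxifene 0.16 and for exemestane 0.07. In the fit with class it was 0.19 for sham, 0.20 for estradiol and 0.25 for anastrozole, and 0.17 for tamoxifen, 0.27 for raloxifene and 0.14 for exemestane. All are taken against the same 5 vehicle libraries, and none passed in edgeR. In sham, Ndufb5, a membrane arm subunit, averaged 37.9 ± 4.11 CPM against 32.2 ± 4.11 in vehicle (SD, n = 5), a log2 difference of 0.23 with an adjusted p of 0.533 in edgeR. Ndufv3 differed by 0.18 (adjusted p = 0.841). In estradiol, Ndufa7 differed by 0.29 and Ndufa13, a membrane arm subunit also known as GRIM-19, by 0.24 (adjusted p = 0.491 and 0.523 in edgeR). In anastrozole Ndufa4 differed by 0.13 and Ndufb6 by 0.18, each with an adjusted p of 1. Ndufa10l1 was also among the smallest p values in all 3, at 0.254 ± 0.234 CPM in vehicle and 2.31 ± 0.615 in estradiol. At these few counts, and beside its near-identical copy, its difference is uncertain.

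The receptor modulators, given at different doses, were set side by side. Tamoxifen against raloxifene gave 0 calls in edgeR (0% of all genes) and 0 calls in DESeq2. In edgeR, 1212 of all 14411 genes had an unadjusted p under 0.05, and 5 Nduf genes did. Of these Nduf genes Ndufa7 had the smallest p, at 24.8 ± 5.52 CPM in tamoxifen and 19.6 ± 1.77 in raloxifene (SD, n = 5). Its log2 difference was 0.34 ± 0.13, with an adjusted p of 0.584 in edgeR. Ndufb5, Ndufb8 and Ndufb10, all of the membrane arm, differed by 0.21, 0.22 and 0.23 at the same adjusted p. Adding class to the model made these differences 0.14 for Ndufa7, 0.15 for Ndufb5, 0.13 for Ndufb8 and 0.08 for Ndufb10.

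Exemestane against anastrozole, the aromatase inhibitors, gave 0 calls in edgeR (0% of all genes). DESeq2 called 5, and 18 Nduf genes had an unadjusted p under 0.05 in edgeR, as did 3900 of all 14411 genes. Ndufa8, a membrane arm subunit, averaged 57.2 ± 10.8 CPM in exemestane and 71.9 ± 8.16 in anastrozole (SD, n = 5), a log2 difference of -0.33 ± 0.10 with an adjusted p of 0.0901 in edgeR. Ndufaf4 differed by 0.56 ± 0.18, Ndufv1 by -0.28 and Ndufs5 by 0.26, with adjusted p of 0.0933, 0.0954 and 0.0966. The groups hold 4 and 2 class B libraries. With class as a term Ndufa8 differed by -0.18, Ndufaf4 by 0.28, Ndufv1 by -0.13 and Ndufs5 by 0.16. The count became 20 without exemestane library 5, 7 without anastrozole library 3 and 12 without anastrozole library 4. For these counts and that of DESeq2, the share of all genes called is not given here.

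More Nduf genes differed between the library classes than in any comparison of treatments. The class comparison sets 20 libraries beside 15, while a comparison of treatments sets 5 beside 5, so the counts are not alike in power. The classes were set from ratios that hold these same counts, so the p-values do not test the split independently. With group as a term, 37 of 46 (80.4%) differed between classes, against 51.9% of all genes, and the median log2 difference (class B minus class A) was -0.17, against -0.015 over all genes. Of these, 11 were higher and 26 lower in class B. Assembly factors had 4 higher and 2 lower of 8 (75%). Core subunits had 2 and 4 of 7 (85.7%), matrix arm accessories 1 and 5 of 8 (75%), and membrane arm accessories 3 and 13 of 19 (84.2%). Ndufa10, Ndufa10l1, Ndufa5, Ndufa9, Ndufaf5, Ndufaf6, Ndufb6, Ndufc1 and Ndufs3 did not pass. Of these, Ndufs3, a core subunit of the matrix arm, was level at 45.6 ± 2.62 CPM in class A and 44.6 ± 2.45 in class B, overlapping throughout.

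Ndufaf4 was the Nduf gene with the largest positive difference, at 15.1, 18.9 and 20.8 CPM in class A (lowest, median, highest) and 27, 31.8 and 40.4 in class B. No class B library reached down into class A. The log2 difference was 0.73 ± 0.07, with an adjusted p of 1.61e-10 in edgeR. Ndufaf2, a late assembly factor, differed by 0.43, Ndufs4 by 0.36, Ndufaf1 by 0.34, Ndufs1, the largest iron-sulfur subunit, by 0.33 and Ndufs5 by 0.26.

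On the lower side, Ndufs7 stood at 46.8, 52.9 and 68.9 CPM in class A and 28.9, 31.8 and 34.9 in class B, again without overlap. Its log2 difference was -0.72 ± 0.06 (adjusted p = 1.1e-12 in edgeR). Ndufa4l2, a paralog of Ndufa4 induced by low oxygen, differed by -0.82 and Ndufaf8 by -0.75, both at low counts. Ndufs8 differed by -0.51, Ndufb7 by -0.48 and Ndufa7 by -0.46. Genes whose 2 class ranges did not overlap numbered 7 of 46 (15.2%), against 10.4% of all genes: Ndufa13, Ndufa7, Ndufaf4, Ndufb7, Ndufs4, Ndufs7 and Ndufv1.

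The mitochondrially encoded complex I genes were higher in class B for 6 of 7 (85.7%, median 0.49), where 51.9% of all genes differed. Mitochondrial protein genes together took 4.32 to 6.66% of the total in class A libraries and 5.80 to 7.77% in those of class B. Of the 38 genes of complexes II to V, 11 were higher and 20 lower (81.6%, median -0.16). Of the 15 regulators, 6 were higher and 5 lower (73.3%). They ran from -0.61 for Polrmt to 0.56 for Gabpa, with the nuclear receptor Esrra at -0.45. The share of Rn7sl1, a small RNA that is no member of the pathway, separated the classes. It was 4.47 to 6.49% in A libraries and 2.90 to 3.84% in B libraries. This share was used to choose which class is called A, so the direction was set in advance. Among cell type markers, 3 of 5 astrocyte genes were higher and 2 lower, and of 6 neuronal genes 1 was higher and 3 lower. Of 5 microglial genes 3 were lower and none higher, with sums of 118.3 to 170.7 CPM over class A and 110.3 to 133.2 over class B. Of 3 endothelial genes 1 was lower, of 7 myelin genes 2 were higher and 2 lower, and likewise of 7 hippocampal neuron genes. No choroid plexus or thalamus gene passed. Neuronal sums were 2466 to 3671 CPM among class A libraries and 3255 to 3682 CPM among those of class B. No marker of these lists was at 0 in a library, except 2 of the 5 choroid plexus genes, and the part of these markers in the class difference was not tested.

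The deposited normalized signal carries a smaller class difference for most of these genes. Over 45 Nduf genes (all but Ndufa10l1, which has zeros), the log2 class difference in counts and the class difference in the authors' factor had the same sign for 36 (80%, against 84.4% of all genes). Their correlation across genes was 0.73 (0.791 over 14051 genes). These genes share libraries and are not independent. The factor is the ratio of the count to the normalized signal, and the classes were set from it. The agreement in sign and the correlation are therefore partly built in. The median absolute class difference was 0.26 on counts and 0.18 on the normalized signal, against 0.23 and 0.14 over all genes. It was smaller on the signal for 36 of 45 (80%), the share over all genes being 80.4%. For Ndufs7 it went from -0.72 to -0.34, for Ndufaf4 from 0.74 to 0.44 and for Ndufv1 from -0.38 to -0.16. Ndufb6 and Ndufc1 instead went from 0.07 to 0.34 and from 0.20 to 0.36. With the authors' factors as offsets in edgeR, 23 of 46 Nduf genes differed between classes, 9 higher and 14 lower, where 27.2% of all genes did. In raloxifene 3 then passed, against 6.41% of all genes, Ndufs5 among them (log2 change 0.35, adjusted p = 0.0275 in edgeR).

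**Figure D5:**
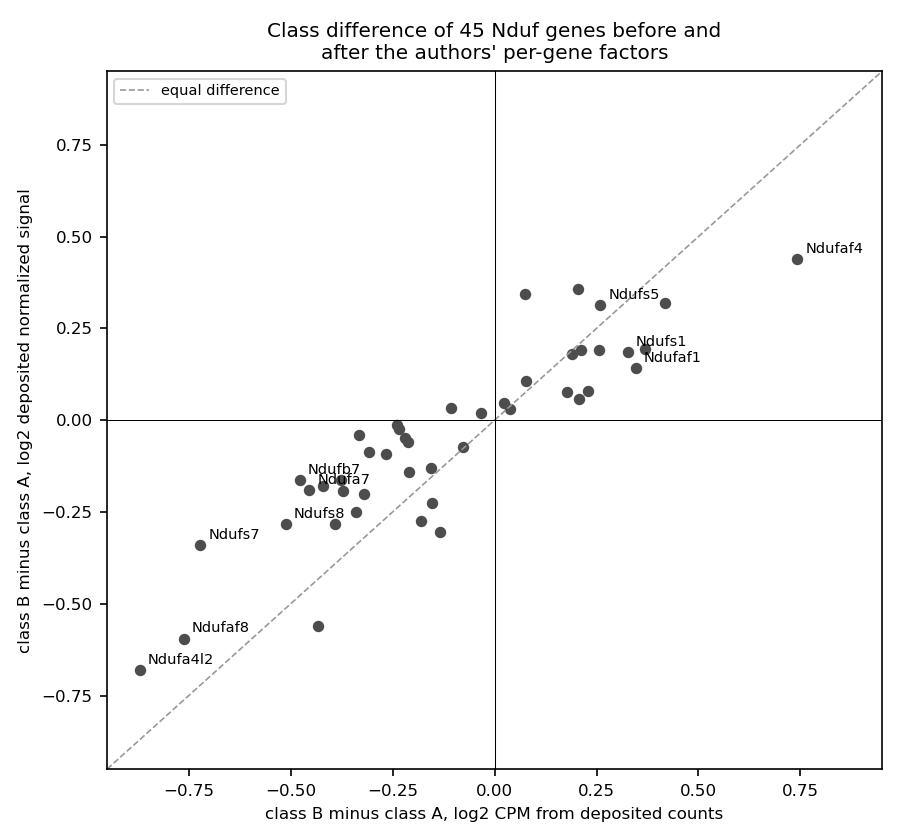
Class B minus class A difference of 45 Nduf genes on the log2 scale, from deposited counts (horizontal axis) and from the deposited normalized signal (vertical axis), with the dashed line marking equal differences. Most points lie nearer to 0 on the vertical axis (36 of 45), such as Ndufs7 at -0.72 and -0.34.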

How the data were processed

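Stranded poly(A) libraries were made from hippocampal RNA, per the labels' protocols. The submitters' processing notes name Salmon and DESeq2, and the genome build, annotation and versions are not given in the sources used here. The authors deposited estimated counts per gene, already rounded to whole numbers, with totals of 5.58 to 12.09 M (mega) a library (median 8.01 M). They also deposited a normalized signal, in which each count is scaled by a gene-specific and library-specific factor.

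The count tests used edgeR 4.0.16 and R 4.3.3. TMM scaling, the filterByExpr filter and a robust quasi-likelihood F-test were used, in 1 model of 7 groups and 35 libraries. P-values were Benjamini-Hochberg adjusted over 14411 genes, with a threshold of 0.05. Standard errors of log2 changes were taken from the change and its F statistic. The test was tested on simulated data.

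Library class is the sign of the first component (72.3% of the variance, the second 1.69%) of the gene-centred log ratio of the 2 deposited tables over 14326 genes. It was set from these data, and its origin was not tested. Where 1 library of a class stands in a group, it is assumed to vary like the others.

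The members and lists were chosen with earlier results of these data known. Named genes were, per comparison, the 4 called genes that rose most and the 4 that fell most, or the 4 of smallest p where none was called, and 6 and 6 for class. Also named were the 2 genes of most and the 2 of fewest counts, and those that changed sign with class. The remaining called genes and the classes' non-overlapping genes were named after their values were seen, as were pathway genes and Ndufs3, Ndufaf3, Ndufaf8 in raloxifene, Ndufb6 and Ndufc1 for the signal, and Ndufab1 across groups. Alternatives were DESeq2 1.42.0, RLE size factors, no filter, the authors' factors as offsets, class terms, class subsets, the 2 groups alone, Ttr as a term and leaving out each library. The results of 1 Nduf gene are counted but not reported here. Promoters are from RefSeq.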

Additional observations from a re-analysis of the deposited data

Results flagged for a closer look

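Levels of 15 named Nduf genes were examined in each of the 7 groups, 105 sets of 5 libraries, for a single library far from the rest. Chance alone marks about 1 set in 20, and 5 sets were marked.

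In exemestane, library 5 stood apart for 2 genes. Ndufs7 was at 49.0 CPM there and at 28.9 to 30.4 CPM in the other 4 libraries, and Ndufa7 was at 29.2 CPM against 17 to 20.1. That library is the class A library of the group. Class A libraries of all groups ranged from 46.8 to 68.9 CPM for Ndufs7 and from 23.3 to 32.6 CPM for Ndufa7.

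The sham group, all of class A, gave 2 low values. Ndufaf4 was at 16.5 CPM in library 5 and at 20 to 20.7 CPM in the others, and Ndufs5 was at 37.7 CPM in library 4 and at 41.9 to 43.4 CPM in the others. In tamoxifen library 3, Ndufa4l2 was at 0.693 CPM against 1.29 to 1.41 in the others, a gene with few counts throughout.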

How the results depend on the processing

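No paired analysis was possible because the library titles carry no replicate number shared between groups. As designed, edgeR called 14 Nduf genes in raloxifene, 6 in exemestane, 26 for any difference and 37 between classes. With library class as a term the first 3 counts were 0, 0 and 0, where 1, 0 and 4 of all 14411 genes passed. The class score as a continuous term, chosen after seeing the data, gave 0 in raloxifene and 0 in exemestane. Within class B, raloxifene and exemestane gave 0 each, and within class A exemestane gave 0. Each of these fits sets 1 library alone against the other group, so its count of 0 says nothing about stability. The authors' factors as offsets gave 3 in raloxifene, 0 in exemestane, 12 for any difference and 23 between classes. Fits on the 2 groups alone gave 22 in raloxifene and 0 in exemestane. DESeq2 gave 1 in tamoxifen, 10 in exemestane and 5 for exemestane against anastrozole. Leaving out each library in turn gave 4 to 22 calls in raloxifene, 0 to 14 in exemestane, 0 to 2 in tamoxifen and 0 to 20 for exemestane against anastrozole. Most of these counts have no share of all genes beside them, so they show only how far the count moves. The remaining 145 counts equalled the value as designed or stayed within 1.5 times of it. Many of them are 0 beside 0, in comparisons that gave no calls as designed, and say nothing about stability.

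For single genes named in raloxifene, in exemestane and between classes, pooled, 401 values kept their direction and side of the threshold. Another 141 no longer passed and 10 changed sign. Class differences passed in nearly all fits without 1 library and weigh heavily in the 401. The total therefore says little about the treatment comparisons. In raloxifene, Ndufs7 was at 0.0586 with class and 0.0649 with the class score, Ndufs8 at 0.0681, 0.0671 and, within class B, 0.0339, and Ndufa7 at 0.0265 and 0.046 with class and its score. Ndufaf4 was at -0.011 with the class score and Ndufs4 at -0.041 within class B. Ndufv2 in exemestane was at -0.015 within class A. The cause was not tested. Of 10 fits without 1 library each, Ndufs5 passed in 10 in raloxifene, Ndufaf1 in 8, Ndufaf4 and Ndufb8 in 6, Ndufs7 in 5, Ndufs4 in 4, and Ndufs8 and Ndufa7 in 1. Every exemestane gene named passed in 2 of 10. Differences between classes, with the class of each library held fixed, passed in 20 of 20 for the 12 genes named, except Ndufaf2, with 15. Depth limits Ndufa10l1 and Ndufa4l2, whose mean counts were 8.49 and 10.3.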
